A study of Mus musculus with 24 samples.

Results

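Kinesins are motor proteins that walk along microtubules or take them apart, and the mouse genes for most of them are named Kif with a number and, for some, a letter. Members were taken by that symbol. Of the 38 mouse genes with such a symbol, 36 had a row in a count table of 15736 genes, and Kif12 and Kif2b had none. They were split by known role into 11 mitotic kinesins (Kif2c, Kif4, Kif11, Kif14, Kif15, Kif18a, Kif18b, Kif20a, Kif20b, Kif22 and Kif23), 15 transport kinesins (Kif1a, Kif1b, Kif1c, Kif3a, Kif3b, Kif3c, Kif5a, Kif5b, Kif5c, Kif13a, Kif13b, Kif16b, Kif17, Kif21a and Kif21b) and 10 others. All 36 passed the filter on low counts in every comparison.

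RNA was taken from otocyst epithelium of mouse embryos, that is, from the wall of the vesicle from which the inner ear forms. Control pools (con) were Rosa26rtTA/+, and experimental pools (R2b) were Rosa26rtTA/+;Tg(tetO-s(dn)Fgfr2b)/+, whose transgene encodes a soluble, dominant-negative FGFR2b that binds the ligands of this receptor. Both kinds of embryo carried the activator rtTA at the Rosa26 locus and both received doxycycline, injected into the pregnant female at 1.5 mg/kg and followed by chow that held 200 mg/kg. Doxycycline started at E9.75 for 12 hours (E9.75+12h), at E9.25 for 24 hours (E9.25+24h) or at E10.25 for 24 hours (E10.25+24h), so that embryos were collected at E10.25 in the first 2 cases and at E11.25 in the last. From each litter came 1 con pool and 1 R2b pool of several embryos, and a litter is the replicate here. There were 3 litters with counts for E9.75+12h and 4 for each of the others. In such pooled tissue, fewer cells of a type and less RNA per cell cannot be told apart.

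Mitotic kinesins are made mainly in cells in G2 and M phase, where they build the bipolar spindle, move chromosomes and split the cell in cytokinesis. Transport kinesins carry vesicles, organelles and ciliary cargo, and several of them are abundant in neurons. The otocyst at these stages is a dividing epithelium that also releases neuroblasts of the inner ear ganglion.

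Many genes of G2 and M phase carry a cell cycle genes homology region (CHR) near the start of transcription, bound by the MuvB complex, often with a CCAAT box upstream, bound by NF-Y. Windows from 250 bases before to 50 bases from the start were taken from RefSeq (GRCm38.p6) and matched 29 of the 36 members in 33 windows. The CHR was searched as TTTGAA or TTCGAA, the CCAAT box as CCAAT, and an ETS site as CCGGAAGT, each on both strands. A CHR match was in 9 of the 10 windows of mitotic kinesins, in 1 of the 13 windows of transport kinesins and in 3 of the 10 windows of the others, against 19.2% of all 32851 windows. A CCAAT box was in 6 of 10, 4 of 13 and 4 of 10 windows, against 37.4% of all. Both were in 6 of 10, 0 of 13 and 3 of 10, against 7.52% of all. The ETS letters were in 1 window of each class, against 3.89% of all. The windows of Kif14, Kif2c, Kif27 and Kif17 and 1 of the windows of Kif1a start more than 500 bases inside the gene, counted from its 5′ end in GENCODE. Without these 5, a distance set after seeing the data, a CHR match was in 7 of 8, 0 of 11 and 2 of 9 windows, and both a CHR match and a CCAAT box in 5, 0 and 2. A match is a run of letters and does not show that a factor binds there. Windows of 4 mitotic kinesins with a CHR match are printed as examples, with that of Kif1a, the transport kinesin with the clearest rise. The mitotic window without a CHR match was that of Kif18a, which held no CCAAT box either and is not printed. Capitals mark CHR and CCAAT letters, which read TTCAAA and ATTGG when on the opposite strand. They lie at chr19:37376132-37376431 on the + strand (Kif11), chr9:122950831-122951130 on the + strand (Kif15), chr19:34922108-34922407 on the + strand (Kif20b), chr7:127042371-127042670 on the - strand (Kif22) and chr1:93101825-93102124 on the - strand (Kif1a), and each is written along its gene.
Kif11: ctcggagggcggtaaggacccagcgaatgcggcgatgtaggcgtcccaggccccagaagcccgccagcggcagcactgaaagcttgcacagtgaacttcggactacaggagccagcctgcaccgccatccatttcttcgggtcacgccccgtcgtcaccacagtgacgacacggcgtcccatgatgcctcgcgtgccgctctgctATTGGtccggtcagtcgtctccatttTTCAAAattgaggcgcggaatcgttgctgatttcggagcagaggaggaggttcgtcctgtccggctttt
Kif15: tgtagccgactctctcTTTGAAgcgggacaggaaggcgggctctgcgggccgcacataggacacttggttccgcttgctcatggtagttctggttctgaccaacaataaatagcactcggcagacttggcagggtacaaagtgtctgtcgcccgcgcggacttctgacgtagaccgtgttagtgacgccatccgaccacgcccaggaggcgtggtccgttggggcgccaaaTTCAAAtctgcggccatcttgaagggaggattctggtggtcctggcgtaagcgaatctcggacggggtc
Kif20b: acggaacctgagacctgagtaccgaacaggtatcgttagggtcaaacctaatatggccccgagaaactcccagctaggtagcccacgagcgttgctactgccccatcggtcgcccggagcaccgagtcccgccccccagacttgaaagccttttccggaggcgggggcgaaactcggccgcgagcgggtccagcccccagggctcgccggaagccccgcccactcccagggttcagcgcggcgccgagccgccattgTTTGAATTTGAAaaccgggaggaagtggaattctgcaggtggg
Kif22: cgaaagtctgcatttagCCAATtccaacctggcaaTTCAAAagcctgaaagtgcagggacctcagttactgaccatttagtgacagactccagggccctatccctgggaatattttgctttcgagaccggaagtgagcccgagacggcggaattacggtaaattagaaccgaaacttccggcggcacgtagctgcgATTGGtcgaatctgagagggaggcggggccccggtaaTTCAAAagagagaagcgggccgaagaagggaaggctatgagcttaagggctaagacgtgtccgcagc
Kif1a: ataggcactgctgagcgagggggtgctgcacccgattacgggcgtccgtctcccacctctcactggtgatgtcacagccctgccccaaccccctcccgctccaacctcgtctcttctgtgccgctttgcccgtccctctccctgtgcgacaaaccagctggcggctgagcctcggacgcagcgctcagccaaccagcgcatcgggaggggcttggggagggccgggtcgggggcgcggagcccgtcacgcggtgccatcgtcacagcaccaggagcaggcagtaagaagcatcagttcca
With the first transcribed base as 1, the CHR match nearest the start began at -19 in Kif11, at -19 in Kif15, at -17 in Kif22 and at 8 in Kif20b. Kif20b held another CHR match directly after it, at 14. The CCAAT box nearest the start began at -45 in Kif11 and at -54 in Kif22, and the windows of Kif15 and Kif20b held no CCAAT box. The Kif1a window held neither a CHR match nor a CCAAT box. A second Kif1a window, at an internal start, held a CHR match at -44.

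Library totals were 18.7 to 28.2 M counts. The transgene label was checked on Ighg1, whose reads come from the antibody constant region fused to the soluble receptor. Con pools held 19 to 36 of its counts at E9.75+12h and 1 to 5 at E9.25+24h, while R2b pools held 19414 to 76096 and 26082 to 42515. At E10.25+24h the libraries labelled con had 15754, 28, 5106 and 16 counts in litters 1 to 4, and those labelled R2b had 1504, 25248, 23658 and 19155. The pools of litter 1 thus went against their labels, and the library labelled con of litter 3 held transgene reads too. Kinesin results at E10.25+24h are given by label, with the values without litter 1 beside them or in the same paragraph. All 12 markers of otic epithelium had reads in every library, summing to 2325 to 8181 CPM. Markers of blood were uneven, from 9.82 to 1603 CPM at E9.25+24h and up to 5113 CPM in 1 library at E10.25+24h. Mesenchyme markers (11 of 12 with a row) and endothelium markers (12 of 12) spanned 87.0 to 1294 CPM and 109 to 396 CPM over all libraries, with the highest mesenchyme and endothelium sums in the con pool of litter 4 at E9.25+24h. Of 13 hindbrain markers 6 had a row. Their sum was 361 to 377 CPM in con and 492 to 558 CPM in R2b pools at E9.75+12h, and 260 to 401 and 427 to 620 CPM at E9.25+24h. Nearly all of it was Lmx1a, which the otic epithelium also expresses, and the other 5 stayed at or under 6.10 CPM in every library. The part of any of these in the kinesin results was not tested.

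Values are CPM, reads of a gene scaled to library size with TMM factors, and a gene is called changed where the Benjamini-Hochberg adjusted p (FDR) of edgeR's quasi-likelihood test was under 0.05 over all genes tested. Values in lists are in the order of the litters. The labels name separate litters. Without a litter block the test treats the con and R2b pools of a litter as independent, and its p-values measure the spread between pools of different females. Where the litter is added to the fit as a block, they measure the spread of the differences within litters.

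Per kb of exon, the most abundant kinesin in all 6 groups was Kif20a, which works in the central spindle during cytokinesis, followed by Kif5b, the broadly expressed heavy chain of conventional kinesin. In con pools at E9.75+12h their levels were 68.0 ± 3.13 and 36.9 ± 1.45 CPM per kb (SD, n = 3). Kif11, the plus-end motor that pushes spindle poles apart, and Kif2c, a depolymerase at centromeres, followed at 28.1 ± 2.06 and 28.1 ± 2.15 CPM per kb and did not differ beyond their spread. At the other end stood Kif26b, Kif6, Kif9 and Kif17 with 0.856, 0.672, 0.411 and 0.107 CPM per kb. Kif20a in con pools was at 60.8 ± 6.71 CPM per kb at E9.25+24h (SD, n = 4). In the libraries labelled con at E10.25+24h it was at 49.4 ± 7.66 CPM per kb (SD, n = 4), and at 53.1 ± 1.59 without litter 1 (SD, n = 3), a value added after seeing the data. Kif17 was last in both exposures. The titles of the libraries carry another number prefix in each exposure, and a difference in level between exposures cannot be told apart from one between these sets of libraries.

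**Figure D1:**
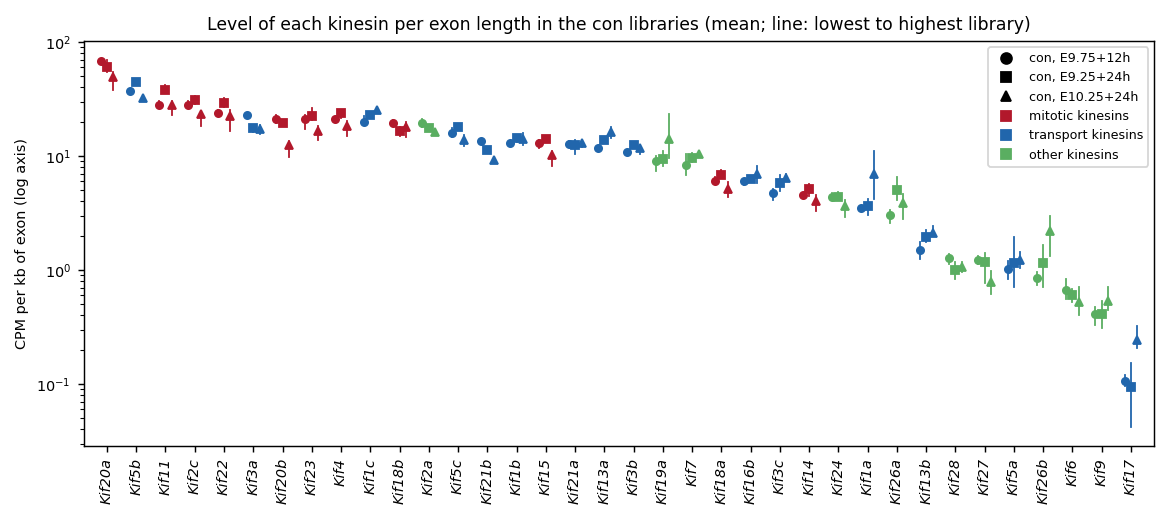
Mean level of each of the 36 kinesins in the con libraries of each exposure, in CPM per kb of exon on a log axis, with a line from the lowest to the highest library. Kif20a leads and Kif17 is last in all 3 exposures, and mitotic (red), transport (blue) and other (green) kinesins are mixed along the order.

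After 12 hours of doxycycline, every mitotic kinesin was lower in R2b than in con pools, most of them near 50% of the control level. Transport kinesins as a class did not move that way: 1 was called lower, 2 were called higher and 12 were not called. Of the 10 others, 2 were called lower and 2 higher. The background at E9.75+12h was 9.78% of all tested genes called lower and 10.20% called higher. The median log2 fold change was -0.96 over the mitotic, 0.13 over the transport and 0.29 over the other kinesins, against 0.01 over all genes. With the litter as a block, 6.13% of genes were called lower and 5.79% higher, and all 11 mitotic kinesins were still called lower.

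**Figure D2:**
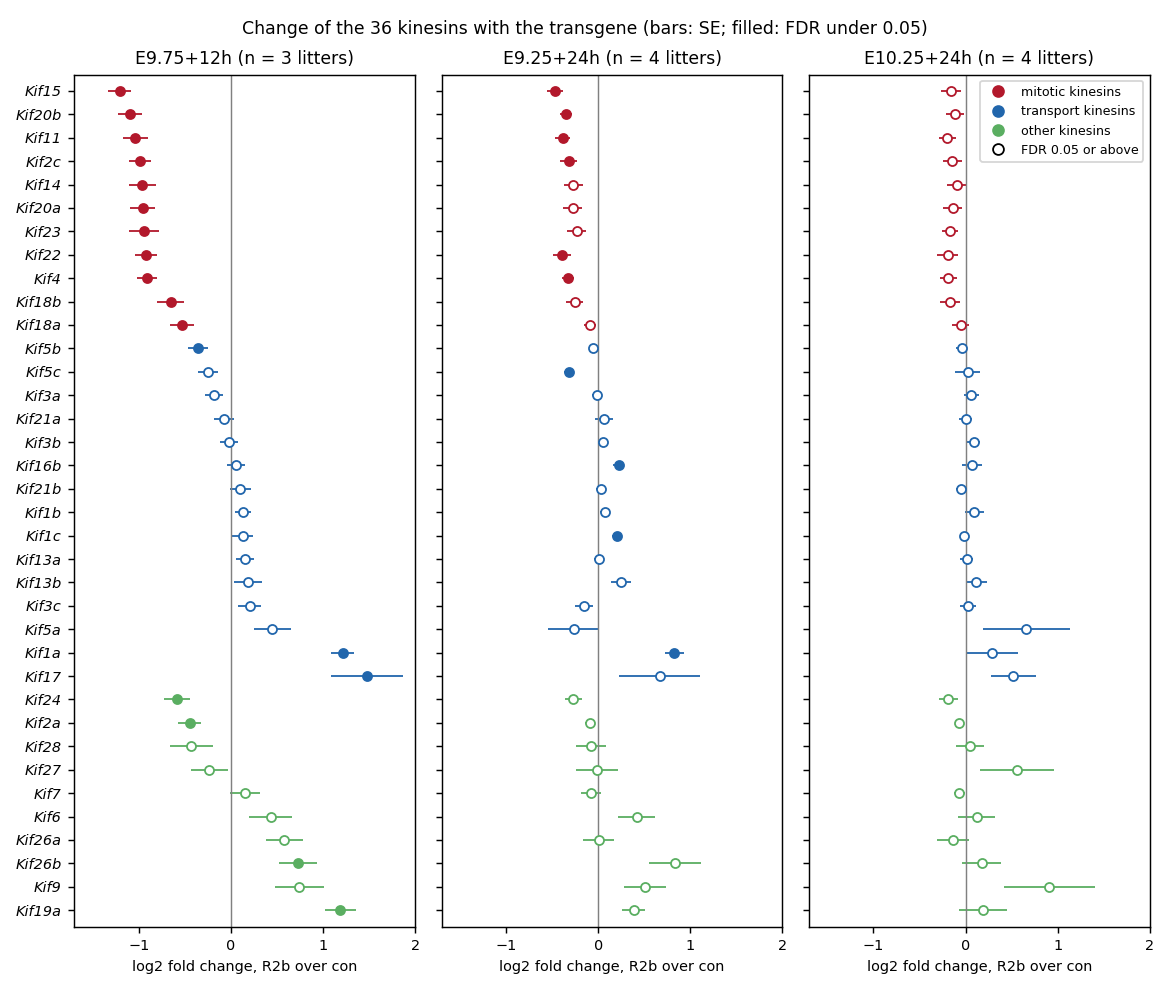
Log2 fold change of R2b over con for each of the 36 kinesins in each exposure, with SE bars. Filled points passed an FDR of 0.05. All 11 mitotic kinesins (red) lie left of 0 in every exposure, with the farthest points at E9.75+12h, where Kif1a, Kif17, Kif19a and Kif26b are filled on the right.

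Among the motors that set up the spindle, Kif11 was at 227, 205 and 198 CPM in con and at 79.7, 109 and 118 CPM in R2b pools (log2 fold change -1.04, SE 0.14, FDR 0.000886). Kif15, which helps to keep the spindle bipolar, was at 147, 152 and 129.7 CPM in con and at 52.9, 60.4 and 72.4 CPM in R2b pools. This was the lowest log2 fold change of the family, at -1.21 (SE 0.12, FDR 0.000442). In both genes the highest R2b pool was below the lowest con pool, and for both the lowest R2b value came from litter 1. Kif2c was at 119.9, 133 and 115 CPM in con and at 54.6, 57.8 and 73.5 CPM in R2b pools (log2 fold change -0.99, SE 0.12, FDR 0.000786). Kif18a, which limits the length of kinetochore microtubules, was at 64.8, 57.1 and 57.8 CPM against 33.9, 46.0 and 44.1 CPM in R2b pools. Kif18b, which acts on astral microtubules, was at 68.0, 66.7 and 74.2 CPM against 41.5, 36.1 and 55.5 CPM. These last 2 had the smallest falls of the class, at -0.53 ± 0.13 (FDR 0.0153) and -0.65 ± 0.15 (FDR 0.0109) on the log2 scale (± SE). Without litter 1 neither was called.

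The chromokinesins bind chromosome arms. Kif22 was at 112, 125 and 113 CPM in con and at 55.1, 56.7 and 73.0 CPM in R2b pools (log2 fold change -0.92, SE 0.12, FDR 0.00092). Kif4, which also organises the central spindle, was at 121, 115 and 111 CPM against 54.4, 61.4 and 68.4 CPM (log2 fold change -0.91, SE 0.11, FDR 0.000571). The groups of both genes were apart. The motors of cytokinesis fell by similar amounts. Kif20a was at 298, 307 and 280.4 CPM in con and at 124.5, 145 and 187 CPM in R2b pools (log2 fold change -0.96, SE 0.13, FDR 0.00117). Kif20b, which acts at the midbody, was at 159, 149.7 and 136 CPM against 55.6, 78.5 and 73.9 CPM, which is 46.8% of the con level (FDR 0.00061). Kif23, a subunit of centralspindlin, was at 180.4, 182 and 137 CPM against 75.4, 74.1 and 111 CPM (log2 fold change -0.94, SE 0.16, FDR 0.00318). The Kif23 pools of litter 3 were closer to each other than those of litters 1 and 2, and without litter 1 the gene was not called. Kif14, which is needed for cytokinesis, was at 47.2, 47.7 and 45.3 CPM in con and at 18.9, 24.3 and 28.9 CPM in R2b pools (log2 fold change -0.96, SE 0.15, FDR 0.00175).

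**Figure D3:**
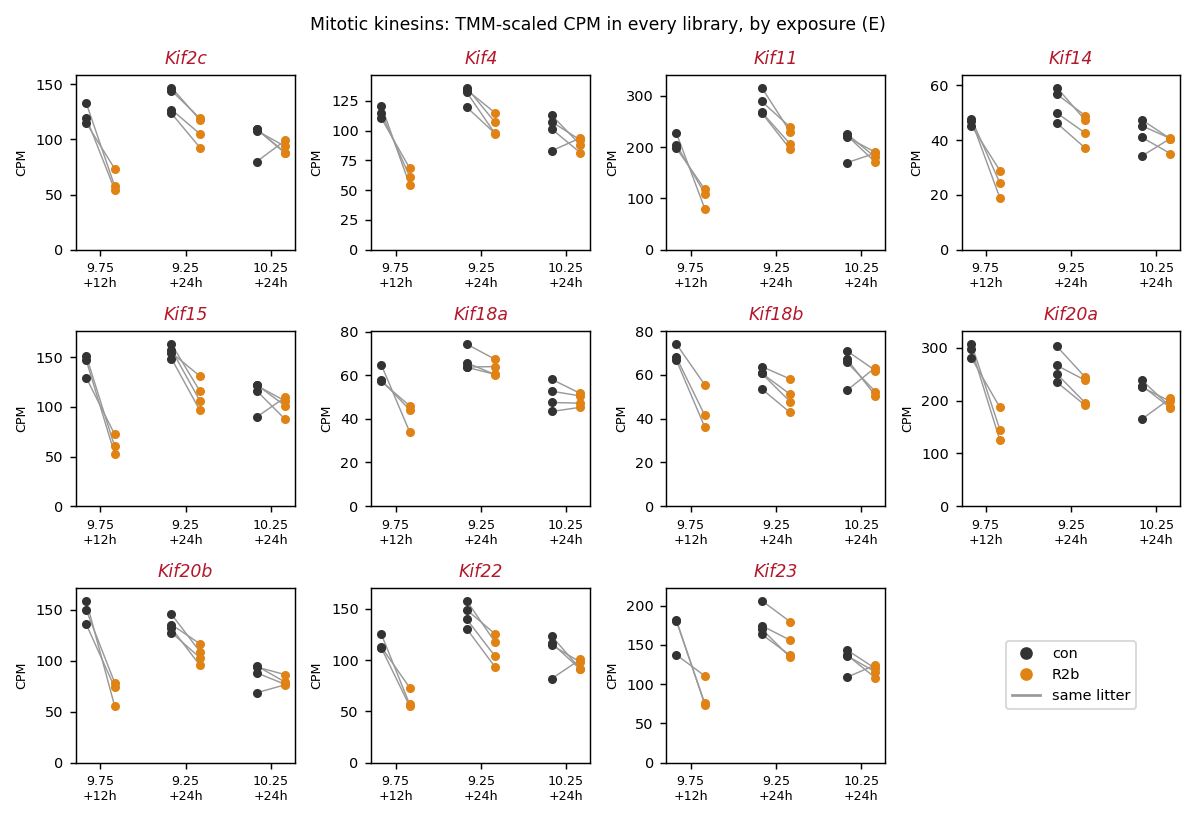
CPM of the 11 mitotic kinesins in every library, con in black and R2b in orange, with a line joining the pools of a litter. At E9.75+12h the 3 R2b points lie below the 3 con points in all 11 genes. At E10.25+24h the line of litter 1 runs upward in each gene.

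The con and R2b ranges did not overlap for any of the 11 mitotic kinesins. Of all tested genes, 19.0% had R2b pools wholly below and 19.8% wholly above the con pools at E9.75+12h. The ranges were also apart for 7 of 15 transport kinesins (3 lower and 4 higher) and 5 of 10 others (2 lower and 3 higher). The mitotic share of all kinesin CPM was 45.8% to 47.9% in con and 26.9% to 34.1% in R2b pools. Within litters the median log2 ratio over the mitotic kinesins was -1.26, -0.97 and -0.65 in litters 1, 2 and 3, with all 11 lower in each. Over the transport kinesins it was 0.13, 0.01 and 0.07.

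Among transport kinesins, Kif1a, an axonal motor for synaptic vesicle precursors, rose most clearly. It was at 31.7, 32.4 and 34.3 CPM in con and at 80.8, 62.1 and 85.3 CPM in R2b pools (log2 fold change 1.21, SE 0.13, FDR 0.000447). It was called in all 19 alternatives tried, each with a log2 fold change between 1.12 and 1.33. Kif17, a motor of cilia and dendrites, was barely detected, with 11, 8 and 9 counts in con and 40, 25 and 28 counts in R2b pools. This is 0.555, 0.437 and 0.474 CPM against 1.70, 0.979 and 1.44 CPM (log2 fold change 1.47, SE 0.39, FDR 0.0233). The groups were apart, but the call was lost with the litter block (FDR 0.0552), and Kif17 shares exon sequence with Sh2d5 on the same strand, so its reads are uncertain. Kif5b was at 294, 306 and 283 CPM in con and at 209, 268 and 215 CPM in R2b pools (log2 fold change -0.35, SE 0.11, FDR 0.0416). It was the only transport kinesin called lower, and with the litter block its FDR was 0.0598. Its neuron-enriched relatives Kif5a and Kif5c were not called, with log2 fold changes of 0.45 (FDR 0.132) and -0.25 (FDR 0.117). The ciliary kinesin-II subunits Kif3a, Kif3b and Kif3c had log2 fold changes of -0.19, -0.02 and 0.20, and none was called.

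Neuroblast markers were also higher in R2b pools at E9.75+12h. Of these markers, 11 of 12 were tested and 6 were called higher (Neurog1, Neurod1, Tubb3, Dcx, Elavl3 and Nhlh1). The log2 fold change was positive for 10 of the 11 and negative for 1. Their summed level was 296 to 338 CPM in con and 437 to 504 CPM in R2b pools. Within litters 1, 2 and 3 the median log2 ratio of the markers was 0.78, 0.88 and 0.22. The log2 ratio of Kif1a was 1.35, 0.94 and 1.31. Pairing by litter was not borne out by the values at this exposure. The part of neuroblasts in the Kif1a result was not tested. At E9.25+24h, where Kif1a was again called higher, 0 of the 11 markers were called. Their sums of 215 to 465 CPM in con and 222 to 249 CPM in R2b pools overlapped. Within litters 1 to 4 of this exposure the marker medians were 0.23, 0.34, -0.16 and -1.03. The log2 ratio of Kif1a was 0.75, 0.98, 1.06 and 0.55. By label at E10.25+24h, the marker medians of litters 1 to 4 were -0.75, 0.39, 0.27 and 2.41. The log2 ratio of Kif1a was -0.47, 0.695, 0.38 and 0.80 there, in the same order over the litters with and without litter 1.

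Among the others, Kif19a, a depolymerase that limits the length of cilia, was at 40.5, 40.2 and 30.1 CPM in con and at 100.3, 64.1 and 88.0 CPM in R2b pools. Its log2 fold change was 1.19 (SE 0.17, FDR 0.00128), and it was called in all 19 alternatives. Kif26b, which lacks motor activity and acts in cell adhesion and polarity, was at 12.9, 10.8 and 14.1 CPM against 21.3, 14.7 and 26.8 CPM (log2 fold change 0.73, SE 0.21, FDR 0.0312). Kif24, which restrains the formation of cilia in cycling cells, was at 38.0, 34.1 and 33.5 CPM in con and at 20.5, 21.9 and 28.0 CPM in R2b pools (log2 fold change -0.59, SE 0.14, FDR 0.0137). In each of these 3 genes the groups were apart. Kif2a, a depolymerase of spindles and of neurites, was at 135, 120.5 and 115 CPM against 81.6, 108 and 82.5 CPM (log2 fold change -0.45, SE 0.12, FDR 0.0268). The call of Kif2a was lost with the litter block (FDR 0.0545). Without litter 1, Kif24, Kif26b and Kif2a were not called. Kif7, the ciliary regulator of Hedgehog signalling, was at 31.5, 47.5 and 36.4 CPM in con and at 51.2, 39.1 and 37.6 CPM in R2b pools. These ranges overlapped widely and the log2 fold change was 0.15 (SE 0.17, FDR 0.55). Kif9 and Kif26a had log2 fold changes of 0.74 (FDR 0.0719) and 0.58 (FDR 0.0617), Kif6 had 0.43, and Kif27 and Kif28 had -0.23 and -0.43, with none called.

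**Figure D4:**
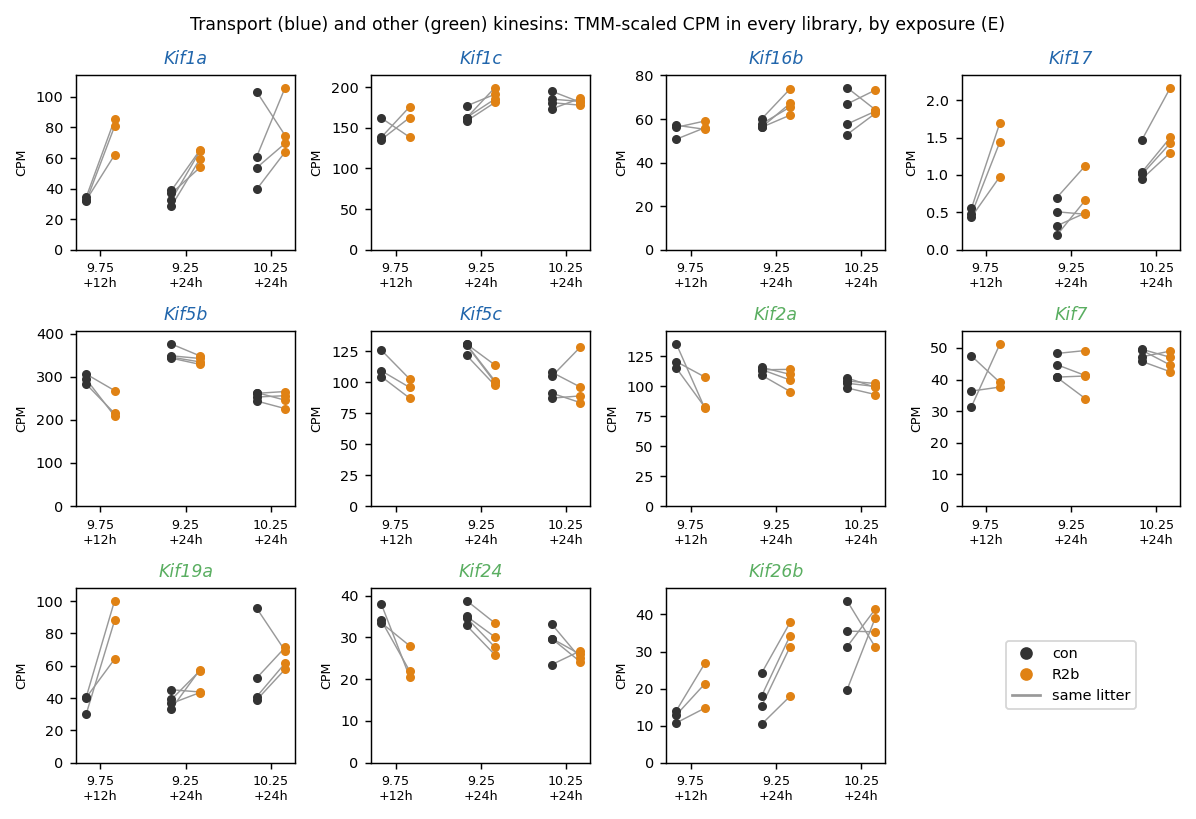
CPM in every library of 6 transport kinesins (blue names) and 5 other kinesins (green names), con in black and R2b in orange, joined by litter. Kif1a and Kif19a rise in all 3 litters at E9.75+12h, and Kif5b, Kif2a and Kif24 fall. In litter 1 of E10.25+24h the lines of Kif1a, Kif19a and Kif26b run downward.

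After 24 hours from E9.25, the mitotic kinesins were again lower in R2b pools, by less. Of the 11, 6 were called lower and 0 higher, 3 transport kinesins were called higher and 1 lower, and 0 of the 10 others were called. The other kinesins had 3 members with an unadjusted p under 0.05, and with the litter block 4 of them were called (Kif26b, Kif19a and Kif9 higher, Kif24 lower). Among transport kinesins the block kept the 4 calls (Kif1a, Kif1c and Kif16b higher, Kif5c lower) and added Kif13b, which carries vesicles, as higher (log2 fold change 0.25, FDR 0.00594) and Kif3c as lower (-0.15, FDR 0.0433). At E9.25+24h, 6.5% of all genes were called lower and 9.09% higher. The median log2 fold change was -0.32 over the mitotic, 0.05 over the transport and -0.01 over the other kinesins, against -0.01 over all genes. With the litter as a block, 20.1% of genes were called lower and 20.5% higher, and 10 of 11 mitotic kinesins were called lower, all but Kif18a. Without the block, the count of 6 fell to 0 without litter 1, to 1 without litter 2 and to 3 without litter 3. With the block it was 10 whichever litter was left out. Shares of all genes called in these fits without a litter are not given here, so these counts have no background beside them.

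Kif15 had the lowest value here too. It was at 158, 149, 164 and 155 CPM in con and at 106, 96.5, 116 and 131 CPM in R2b pools (log2 fold change -0.47, SE 0.09, FDR 0.0105). Kif22 was at 140.0, 131, 158 and 149 CPM against 104, 93.4, 118 and 126 CPM (log2 fold change -0.39, SE 0.10, FDR 0.0279). Kif11 was at 268, 267, 316 and 289 CPM against 206, 196, 230.0 and 239 CPM (log2 fold change -0.39, SE 0.08, FDR 0.0147). In these 3 genes the groups were apart, and litter 2 had the lowest pool of each group. Kif20b was at 127, 132, 145 and 135 CPM in con and at 103, 95.5, 109 and 117 CPM in R2b pools (log2 fold change -0.35, SE 0.07, FDR 0.0131). Kif4 was at 119.9, 133, 136 and 134 CPM against 97.7, 97.6, 107 and 115 CPM (log2 fold change -0.32, SE 0.07, FDR 0.015). Kif2c was at 127, 124, 147 and 144 CPM against 105, 92.7, 118 and 119 CPM (log2 fold change -0.32, SE 0.09, FDR 0.0464). The call of Kif2c was the least stable of the 6: it was made in 11 of 23 alternatives, and lost without each of the 4 litters and in the fit of all libraries. It was made with the block. These 6 were the mitotic kinesins whose ranges did not overlap, where 10.20% of all tested genes had R2b pools wholly below the con pools and 12.2% wholly above.

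The other 5 were lower in all 4 litters, except Kif18a, which was lower in 3. Kif20a was at 235, 251, 303 and 267 CPM in con and at 191, 196, 244 and 239 CPM in R2b pools (log2 fold change -0.28, FDR 0.0998, and 0.000257 with the litter block). Kif23 was at 164, 170.4, 207 and 175 CPM against 137, 135, 179.7 and 156 CPM (log2 fold change -0.24, FDR 0.158, and 0.000639 with the block). In both, the con pools of different litters spread more widely than the con and R2b pools of any 1 litter. Kif14 and Kif18b had log2 fold changes of -0.27 and -0.26, with FDR of 0.118 and 0.0981 and, with the block, 0.000919 and 0.00166. Kif18a had -0.09 (FDR 0.403, and 0.126 with the block). The mitotic share of kinesin CPM was 44.9% to 49.6% in con and 38.1% to 42.7% in R2b pools. Within litters the median log2 ratio was -0.30, -0.42, -0.32 and -0.22 over the mitotic kinesins, and 0.02, 0.04, 0.13 and 0.02 over the transport kinesins.

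Kif1a was at 38.8, 32.6, 28.5 and 36.8 CPM in con and at 65.1, 64.5, 59.3 and 53.8 CPM in R2b pools (log2 fold change 0.83, SE 0.10, FDR 0.0022). It was higher in 4 of 4 litters, the groups were apart, and it was called in all 23 alternatives. Kif5c was at 130.2, 131, 131.0 and 122 CPM in con and at 99.9, 101, 114 and 97.6 CPM in R2b pools (log2 fold change -0.32, SE 0.06, FDR 0.00948). Kif1c, which carries vesicles and works at the Golgi, was at 177, 163, 162 and 159 CPM against 192, 186, 199.8 and 181 CPM (log2 fold change 0.20, SE 0.05, FDR 0.03). Kif16b, a motor of early endosomes, was at 57.8, 60.0, 56.2 and 56.2 CPM against 65.5, 73.8, 61.8 and 67.2 CPM (log2 fold change 0.22, SE 0.06, FDR 0.0405). The groups did not overlap in any of these 4 transport kinesins. Kif1c and Kif16b were not called in any fit without the block that left out a whole litter. Kif5b, called lower after 12 hours, was at 345, 343, 376 and 348 CPM in con and at 334, 329, 348 and 342 CPM in R2b pools (log2 fold change -0.06, SE 0.04, FDR 0.369). Kif26b varied widely between litters, at 18.1, 15.3, 10.4 and 24.2 CPM in con and at 34.3, 31.3, 17.9 and 37.8 CPM in R2b pools. It was higher in 4 of 4 litters. The log2 fold change was 0.83 (SE 0.28, FDR 0.0761), and it was called with the litter block (FDR 2.37e-05).

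At E10.25+24h no kinesin was called by edgeR or by DESeq2, where 0.0% of all 15203 genes were called by edgeR in either direction. The ranges under the 2 labels were apart for 0 of the 36 kinesins, where 0.388% of all tested genes were wholly below and 0.526% wholly above under the label R2b. These counts include litter 1, and counts without it are not given here. No kinesin had an unadjusted p under 0.05 in edgeR, and Kif11 alone had one in DESeq2. Over all genes 175 had one in edgeR and 162 in DESeq2. The median log2 fold change was -0.15 over the mitotic and 0.06 over the transport kinesins, against 0.00143 over all genes. Without litter 1 these medians were -0.27, 0.08 and 0.0065. Kif11 was at 169.5, 226, 219 and 223 CPM under the label con and at 188, 180.3, 190.1 and 171 CPM under the label R2b (log2 fold change -0.20, SE 0.09, FDR 0.9999). The library labelled con of litter 1 was below all those labelled R2b. The 3 others were above them. Without litter 1 the log2 fold change of Kif11 was -0.30 (SE 0.05, FDR 0.1015).

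The litter that went against its labels also went against the others across the class. All 11 mitotic kinesins were higher in the library labelled R2b than in that labelled con in litter 1, and all 11 were lower in each of litters 2, 3 and 4. The median log2 ratios were 0.25, -0.32, -0.20 and -0.29. For the transport kinesins they were -0.10, 0.10, 0.01 and 0.13. Kif1a was at 103, 39.5, 53.7 and 60.9 CPM under the label con and at 74.7, 64.0, 69.6 and 106 CPM under the label R2b, so that litter 1 alone was lower with the R2b label. Kif19a had the same pattern, at 95.5, 38.9, 40.9 and 52.4 CPM against 69.2, 57.9, 61.6 and 71.3 CPM. Without litter 1 the median of the mitotic kinesins was -0.27 and no kinesin was called. With the litter as a block and without litter 1, where 1.25% of genes were called lower and 2.79% higher, 8 of 11 mitotic kinesins were called lower (Kif22, Kif11, Kif23, Kif4, Kif2c, Kif20a, Kif15 and Kif18b) with FDR from 0.0312 to 0.0442. In that fit Kif1a and Kif19a were called higher, by 0.63 ± 0.09 (FDR 0.0249) and 0.54 ± 0.06 (FDR 0.0198) on the log2 scale (± SE). Without litters 1 and 3 the median of the mitotic kinesins was -0.31 and no kinesin was called.

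**Figure D5:**
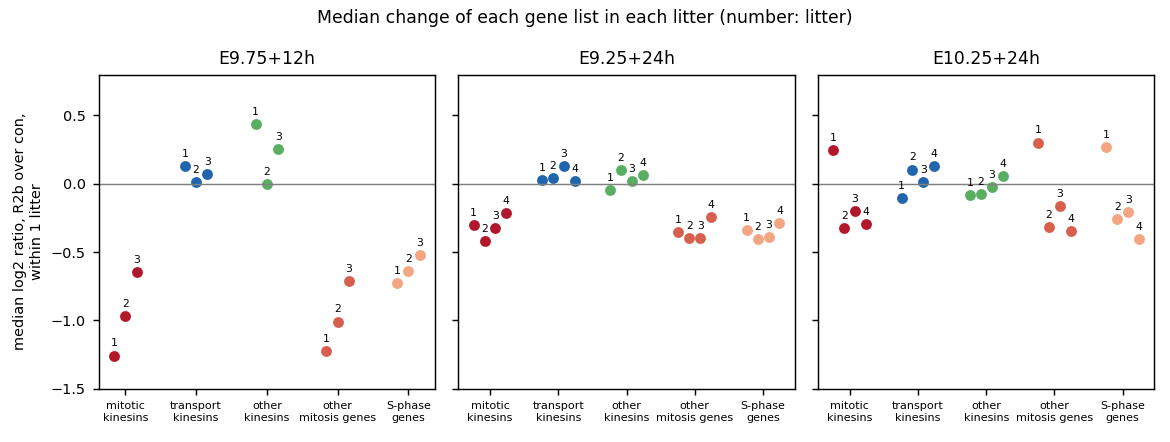
Median log2 ratio of R2b over con within each litter (numbered points) for the 3 kinesin classes, 20 other mitosis genes and 16 S-phase genes. The mitotic kinesins lie between -1.26 and -0.65 at E9.75+12h and between -0.42 and -0.22 at E9.25+24h, and litter 1 of E10.25+24h is above 0 for the 3 lists of cell division.

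The effect on the mitotic kinesins was compared between exposures as a difference of log2 fold changes in 1 fit of all 22 libraries. The exposures compared differ in the start of doxycycline, in its duration or the stage at collection, and in the set of libraries. As sources of a difference in effect, these cannot be told apart. The effect at E9.25+24h minus that at E9.75+12h was positive for 11 of 11, from 0.41 to 0.76, with unadjusted p from 0.000109 to 0.0408. No difference passed adjustment over all genes in edgeR (FDR 0.143 to 0.394), where 0.0% of genes did and 1908 genes had an unadjusted p under 0.05. DESeq2 called 5 of these differences (Kif15, Kif4, Kif20b, Kif2c and Kif11, FDR 0.0073 to 0.0324) among 76 over all genes. For Kif20b the edgeR difference was 0.76 (SE 0.16, FDR 0.143), and for Kif18b it was 0.41 (SE 0.19, FDR 0.394). Without litter 1 of E9.75+12h the mitotic differences were 0.25 to 0.59, 9 of 11 had an unadjusted p under 0.05 and the FDR was 0.94 for each. Without litter 2, edgeR called 7 kinesins, among them Kif2a and Kif5b, and without litter 3 it called Kif15 and Kif23. How many of all genes were called in these fits is not given here, so these counts have no background beside them. For E10.25+24h minus E9.25+24h, 0.0% of genes were called by edgeR, and the mitotic differences were 0.03 to 0.32 with FDR from 0.604 to 0.983. Without litter 1 of E10.25+24h they were -0.06 to 0.18, positive for 7 and negative for 4, with a median of 0.03 against 0.17 with all litters, and an FDR of 0.9999 for each. DESeq2 called 0 kinesins there. Across the 36 kinesins the log2 fold changes of E9.75+12h and E9.25+24h had the same sign in 31 and a Spearman rho of 0.85, with 11 of 11 mitotic kinesins lower in both. The 2 exposures share no libraries, and genes are not independent replicates.

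Other genes of the same machinery were counted beside the family. Of 20 further mitosis genes, 20 were called lower at E9.75+12h (median log2 fold change -0.97), 14 at E9.25+24h (-0.34) and 0 at E10.25+24h (-0.14). Over all tested genes 9.78%, 6.5% and 0.0% were called lower in these exposures. This list and that of S-phase genes were chosen with earlier results of these data known. Without litter 1 of E10.25+24h the median of the 20 mitosis genes was -0.27 with 0 called. With the block as well, 9 of them were called lower, against 1.25% of all genes. Bub1, a spindle checkpoint kinase, had a mean of 160.5 ± 3.80 CPM over the con and of 76.0 ± 7.88 CPM over the R2b pools at E9.75+12h (SD, n = 3), a log2 fold change of -1.08 (FDR 0.000335). Racgap1, the partner of Kif23 in centralspindlin, had a log2 fold change of -0.41 (FDR 0.00243) at E9.25+24h. Of 16 S-phase genes, 14 were called lower at E9.75+12h (median -0.65) and 9 at E9.25+24h (median -0.36). The median of the mitotic kinesins was -0.96 and -0.32 in these exposures.

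Of 16 kinesin partners and relatives tested, Cenpe, the kinesin of kinetochores, was the one called lower at E9.75+12h, with means of 218 ± 14.7 CPM over the con and 96.4 ± 12.4 CPM over the R2b pools (SD, n = 3; log2 fold change -1.18, FDR 0.000335). At E9.25+24h Cenpe (-0.33, FDR 0.0131) and Kifc1, a minus-end spindle motor (-0.35, FDR 0.0224), were called lower on the log2 scale. Klc4, a light chain of conventional kinesin, was called higher in both, with log2 fold changes of 0.54 (FDR 0.029) and 0.28 (FDR 0.0356), and Kifc2, a minus-end motor, at E9.75+12h (0.65, FDR 0.0463). Of 14 genes of dynein, the motor that walks the other way, Nde1 was called lower at E9.75+12h (-0.50, FDR 0.00445) and Dync1i1 higher at E9.25+24h (0.74, FDR 0.0257). The medians of the partners were 0.11 and 0.02, and those of dynein -0.01 and 0.01. At E10.25+24h none of either list was called, with medians of 0.01 and 0.01. Without litter 1 the medians were 0.04 and 0.07 with 0 called. With the block as well, Cenpe was called lower (-0.25, FDR 0.0425), where 1.25% of all genes were.

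Some counts are uncertain for a reason of annotation. Exons of Kif18a, Kif20a, Kif2a, Kif4 and Kif7 overlap those of Mettl15, Cdc23, Dimt1, Pdzd11 and Ticrr on the opposite strand. The same holds for Kif22, Kif26b, Kif27, Kif3c, Kif5b and Kif6 with other annotated genes. Whether the counting used strand is not given in the sources used here. Exons of Kif28, like those of Kif17, overlap another gene on the same strand (Ahctf1), so its reads are uncertain. Kif1c and Kif27 overlap Mir6925 and Mir6369 on the same strand. Kif22 and Kif4 each have an annotated pseudogene with which reads could be shared.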

How the data were processed

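Whole-number read counts per gene were deposited by the authors as 1 table, with no normalization in the values. Reads were aligned with Novoalign 2.08.03 on mm10, per the submitters' processing notes, and the counting tool and its use of strand are not given in the sources used here. Of 24 columns, 22 matched a sample title and 2 named no sample and were not used, which leaves E9.75+12h with 3 litters. Symbols, exon lengths and overlaps came from GENCODE M21 (15522 of 15736 genes had a symbol). R2b was compared with con within each exposure in edgeR 4.0.16 (R 4.3.3) with filterByExpr, TMM and the quasi-likelihood test, with 2 group means and no block. SEs come from the F statistic. The script was tested on simulated counts. Members, roles and lists were chosen with earlier results of these data known. Members called in any exposure, with Kif11, Kif5b and Kif7, are given in full, and for other lists up to 3 members of smallest FDR.

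Pools of a litter are paired by the labels, which say that each female gave both. Across genes, deviations of same-litter pools from their group means correlated at -0.12, -0.24 and -0.26 at E9.75+12h, at 0.42, 0.49, 0.77 and 0.75 at E9.25+24h, and at -0.11, 0.39, 0.31 and 0.30 at E10.25+24h, so the values do not bear out the pairing at E9.75+12h. Library totals of 18.7 to 28.2 M counts make counting error small beside the spread between litters: over 30 pairs of libraries of a group, chi-square divided by its degrees of freedom ran from 5.48 to 44.2. Reads carry no molecular identifiers. Alternatives were other size factors, no filter or a mean CPM of at least 1, robust dispersion, DESeq2 1.42.0, 1 fit of all libraries, the litter block, and each library or litter left out.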

Additional observations from a re-analysis of the deposited data

Results flagged for a closer look

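In groups of 4 pools, 9 of 144 tested sets of kinesin values had 1 pool far from the other 3, by Dixon's test at the 95% level, which chance alone flags in about 1 of 20 sets. Of these, 7 were at E10.25+24h. In the library labelled con of litter 1, whose transgene reads went against its label, Kif11 was at 169.5 CPM where the 3 others were at 219 to 226 CPM, and Kif2c was at 80.0 CPM against 108 to 109 CPM. The library labelled R2b of the same litter had Kif9 at 9.92 CPM against 2.11 to 2.96 CPM, and Kif27 at 12.1 CPM against 3.14 to 4.41 CPM. Both genes are linked to cilia. In the library labelled R2b of litter 4, the neuronal motor Kif5a was at 31.1 CPM against 6.67 to 8.57 CPM, and neuroblast markers summed to 668 CPM there against 195 to 277 CPM in the others of that label. Kif16b in that library was at 73.3 CPM against 62.6 to 64.2 CPM. Kif14 in the library labelled R2b of litter 2 was at 35.1 CPM against 40.5 to 40.6 CPM. At E9.25+24h, Kif5b in the con pool of litter 3 was at 376 CPM against 343 to 348 CPM, and Kif5c in the con pool of litter 4 was at 122 CPM against 130.2 to 131 CPM.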

How the results depend on the processing

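No log2 fold change of a called kinesin changed sign under any alternative. Among those followed but not called, Kif7 took values between -0.13 and 0.38 after 12 hours and between -0.17 and 0.01 in the E9.25+24h exposure, and Kif5b between -0.07 and 0.03 in the E10.25+24h exposure. The E10.25+24h minus E9.25+24h differences of 4 mitotic kinesins were negative without litter 1 of E10.25+24h. At E9.75+12h, where 18 kinesins were called, 9 were called with the litter block and without litter 1 (7 of them mitotic), 10 without litter 1 and 11 without its R2b pool. Leaving out 1 library or litter gave 10 to 21 kinesins, 8 to 11 of them mitotic. At E9.25+24h, where 10 were called, the replicate block gave 20, with 10 mitotic, where 20.1% of all genes were called lower and 20.5% higher. The share of kinesins outside the mitotic class called there was close to that of all genes. The count with the block was 17, 18, 19 and 20 when litters 1 to 4 were also left out in turn, each with 10 mitotic. Without the block the counts ranged from 1 to 12, and those of mitotic kinesins from 0 to 7. They were 1, 2 and 6 without litter 1, litter 2 or the con pool of litter 3, and 4 and 5 without the R2b pools of litters 1 and 2 (2 and 3 mitotic). At E10.25+24h the block without litter 1 gave 10, with 8 mitotic, where other alternatives gave 0. The difference of the E9.25+24h effect from that of E9.75+12h was called for 0 kinesins, for 5 by DESeq2, and for 0 to 7 with a litter left out (7 without litter 2 and 2 without litter 3 of E9.75+12h). The difference of the mitotic and transport medians was -1.19 to -0.89, -0.42 to -0.31 and -0.41 to -0.10 in the 3 exposures with a library or litter left out. The block ended the calls of Kif17, Kif2a and Kif5b at E9.75+12h and of no other kinesin. The cause of these changes was not tested, except that leaving out litters leaves fewer samples. For fits with a library or litter left out, shares of all genes called are given only for E10.25+24h with the block and without litter 1.

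Pools of several embryos, 3 or 4 litters and a litter with conflicting labels limit these comparisons. Kif17, Kif9 and Kif6 had so few reads that their fold changes carry wide errors. At E10.25+24h, comparisons by label in litter 1 go against the transgene reads.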
